A study of Homo sapiens with 6 samples.

Results

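Fatty acid handling was followed in 35 human genes among the 58735 gene identifiers counted in each library. They were listed by name for their known functions, with earlier results of these data known, and found by matching Ensembl identifiers to GENCODE 29 symbols. All 35 matched 1 identifier each. They fall into 12 genes of synthesis, 4 of fatty acid activation, 13 of oxidation and 6 of storage. The libraries came from cells labelled A549, an established line from a human non-small cell lung cancer, with a wild-type genotype label. In 3 libraries the cells were untreated, and in 3 they had received B35 at 2 µM for 72 h, all in medium with serum. B35 is named in the series as an inhibitor of LSD1, a histone demethylase, and the labels name no solvent for the untreated cells. Separate cultures are not named either, so the tests rest on the spread among these libraries, which may be technical.

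Cells build fatty acids in the cytosol from acetyl-CoA. Acetyl-CoA carboxylase makes malonyl-CoA, fatty acid synthase joins the units into a saturated chain, and desaturases and elongases then modify it in the endoplasmic reticulum. A free fatty acid must be joined to coenzyme A by an acyl-CoA synthetase before it can be oxidized or stored. It can then enter mitochondria through the carnitine shuttle for beta-oxidation, be shortened in peroxisomes, or be stored as triglyceride in lipid droplets. Malonyl-CoA blocks the carnitine shuttle, so that synthesis and oxidation are regulated against each other. The genes of synthesis are known targets of the transcription factor SREBP-1, and those of oxidation of PPAR-alpha. Lung cancer lines often make much of their own fatty acid.

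Library totals ran from 17141478 to 18530670 counts, and levels are given as CPM, a gene's count scaled to the TMM-adjusted library total. Replicate libraries correlated at 0.983 to 0.992 across genes on the log2 CPM scale. Library B35 replicate 1 stood apart from the other B35 libraries (chi-square per degree of freedom of 28.6 and 35.2 against them, and 11.0 between them). It was the lowest of the 6 libraries for 12 of the 34 members tested and the highest for 7. The label was checked on markers. The keratins KRT7, KRT8 and KRT18 were abundant in all libraries, while 4 of 9 epithelial and A549 line markers had a mean under 1 CPM over the 6 libraries. These were KRT19, the aldehyde dehydrogenase ALDH1A1, AKR1B10 (1.10 ± 0.439 CPM in control and 0.619 ± 0.173 CPM in B35 cells) and CDH1 (1.34 ± 0.219 and 0.650 ± 0.480 CPM). The sum of the 9 markers was 3060 to 3163 CPM in controls and 2292 to 2737 CPM with B35. Among them KRT8 fell from 1663 ± 34.9 to 1117 ± 158 CPM and EPCAM rose 2.14-fold (edgeR adjusted p = 0.00611 and 0.00248). AKR1C1 rose 2.38-fold, from 13.4 ± 2.27 to 31.9 ± 1.28 CPM (edgeR adjusted p = 0.000407). The changes of EPCAM and AKR1C1 each exceed every change among the members. The part of such shifts in the results on the members was not tested. All 6 alveolar type II markers, all 5 leukocyte markers and all 4 adipocyte markers were under 1 CPM too. Summed fibroblast markers were 27.1 to 27.3 CPM in controls and 19.8 to 22.8 CPM with B35, nearly all of it COL1A1. Summed endothelial markers were 5.85 to 9.22 CPM and 7.38 to 9.44 CPM, mostly CDH5 (6.10 ± 1.21 and 7.66 ± 0.959 CPM, edgeR adjusted p = 0.267). A549 cells are known to have lost the CDKN2A locus, yet CDKN2A, looked up after the other markers were seen, had 115 to 178 CPM in the 6 libraries. The identity of the line was not tested, and the cells are called by their label.

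With B35, the acyl-CoA synthetase ACSL5 rose, and the desaturase FADS2, the synthetase ACSL1 and the mitochondrial oxidation enzymes HADHA and ECHS1 fell. No change among the members reached 2-fold, and the largest was the 1.63-fold rise of ACSL5. These 5 are 14.7% of the 34 members that passed the filter on low counts, beside 15.4% called among all 14773 genes tested (edgeR quasi-likelihood test, adjusted p under 0.05). Among all genes 8.82% were called higher and 6.59% lower, and among the members 1 and 4. The share of members called is therefore close to that of the whole table. The median log2 fold change of the members was 0.0019, that of all genes tested 0.0067. In 15 of the 34 members the CPM of the groups did not overlap, 5 with B35 higher and 10 with B35 lower, beside 36.3% of all genes tested (18.8% higher and 17.5% lower). In bulk RNA, fewer expressing cells and less RNA per cell cannot be told apart.

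**Figure D1:**
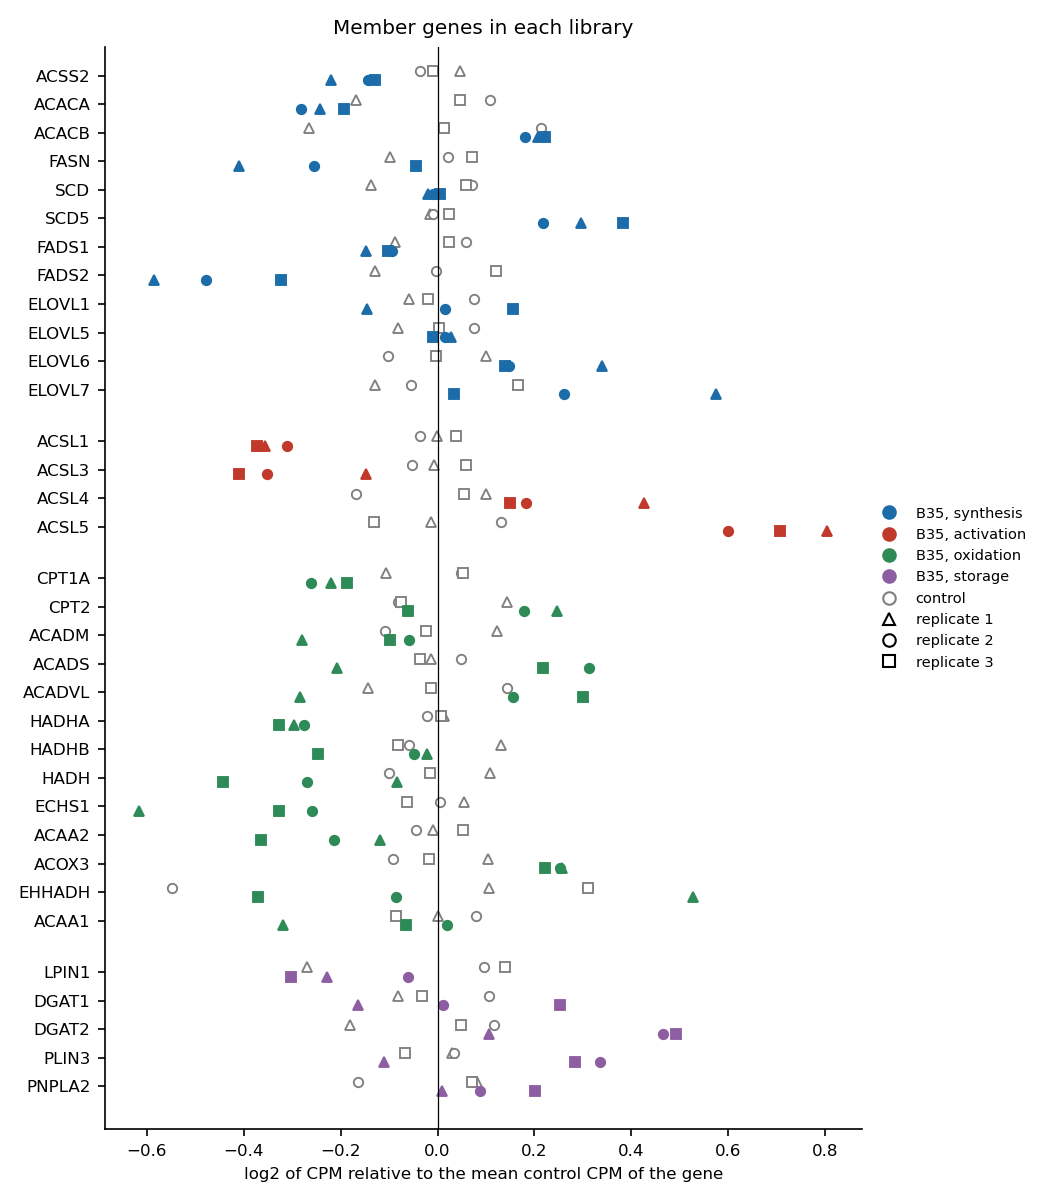
Each row is 1 of the 34 tested member genes and each point a library, placed at the log2 of its CPM relative to the mean control CPM of that gene, with open grey symbols for control and filled symbols for B35, coloured by arm, and the shape giving the replicate. The 4 activation genes are the only arm in which control and B35 libraries are apart in every gene, 2 to the left and 2 to the right, and ACSL5 lies farthest right.

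ACSL5 was the 1 member that kept its call whichever library was left out. Without control replicate 1, 2 or 3 the number of members called was 2, 1 and 1, and 7.12%, 8.5% and 5.8% of all genes were called. Without B35 replicate 2 it was 2 (10.9% of all genes), and without B35 replicate 3 it was 3 (10.6%). Without B35 replicate 1 it was 11, with 4 higher and 7 lower, or 32.4% beside 22.2% of all genes tested in that fit (12.1% higher and 10.1% lower). After correction of each library for GC content and exon length, 14 members were called, 3 higher and 11 lower, or 41.2% beside 27.6% of all genes (11.9% higher and 15.6% lower), and the replicate block added to it gave 14 too (27.5%). In that corrected fit the share of calls that were rises was 43.3% over all genes, against 57.2% in the fit reported here. The same 5 members were called with RLE or upper-quartile scaling (15.5% of all genes each), a mean CPM filter (16.1%), robust dispersion (15.6%) and limma-voom (15.1%). DESeq2 called 6 members (15.4% of all genes), the replicate block 6 (19.3%) and the fit without a low-count filter 7 (10.4%).

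**Figure D2:**
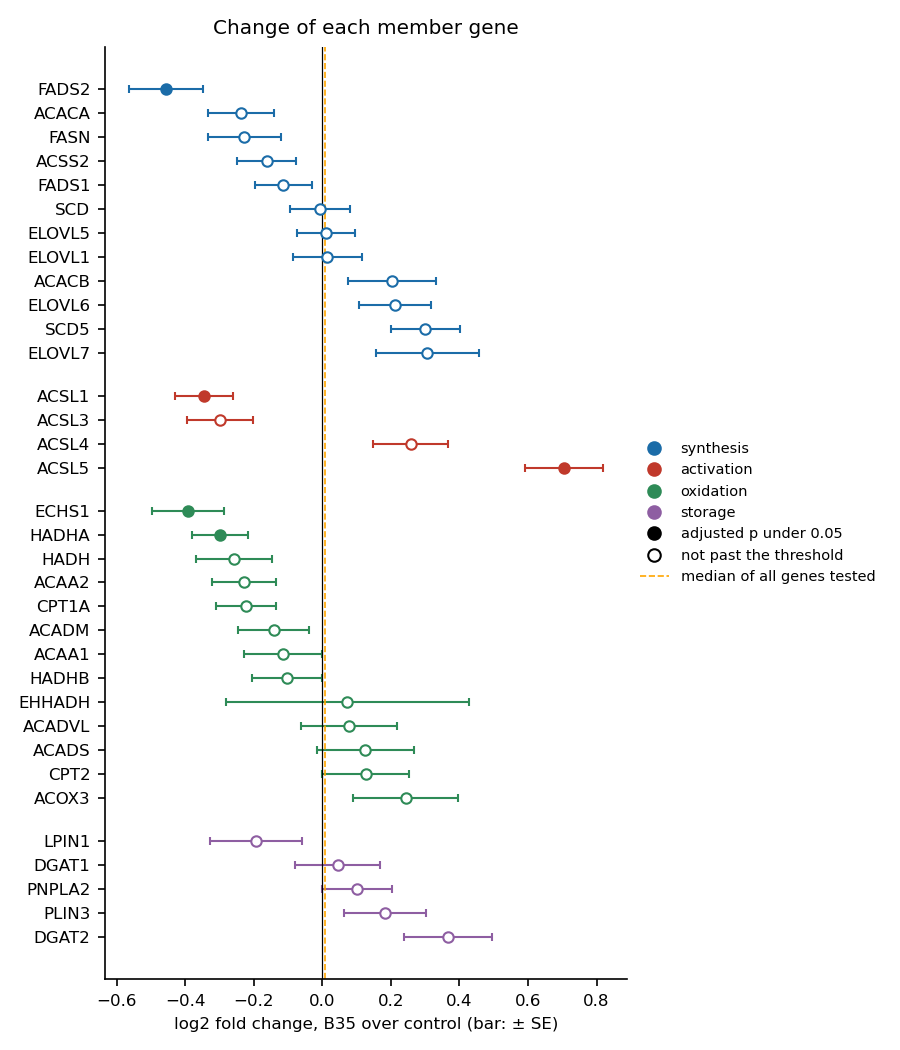
Each point is a member's log2 fold change, B35 over control, with a bar of ± 1 SE, filled where the adjusted p is under 0.05, and the dashed line is the median of all genes tested. The points of the 5 members called lie at 0.70 for ACSL5 and between −0.46 and −0.30 for FADS2, ECHS1, ACSL1 and HADHA, while the storage genes are all open.

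In the synthesis arm 1 of 12 genes fell and none rose (8.33% called, beside 15.4% of all genes tested). The median log2 fold change was 0.0019, beside 0.0067 for all genes tested. Levels of different genes can be compared per exon length, all annotated exons merged, which is what the authors' FPKM values give. The transcripts in use were not determined, so an order of genes on the FPKM scale is approximate. On that scale SCD, the stearoyl-CoA desaturase that makes oleate, was the highest of all 35 members, at 276 to 319 FPKM, and no other member reached its range. Next in this arm came the elongase ELOVL5 (mean over the 6 libraries 63.1 FPKM), the delta-5 desaturase FADS1 (53.1 to 61.9 FPKM) and fatty acid synthase, FASN (52.8 FPKM), and the ranges of these neighbours overlapped. Lowest was ACACB, the acetyl-CoA carboxylase found at mitochondria, at 1.91 FPKM. Its cytosolic relative ACACA, which supplies malonyl-CoA for synthesis, had 12.3 FPKM.

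**Figure D3:**
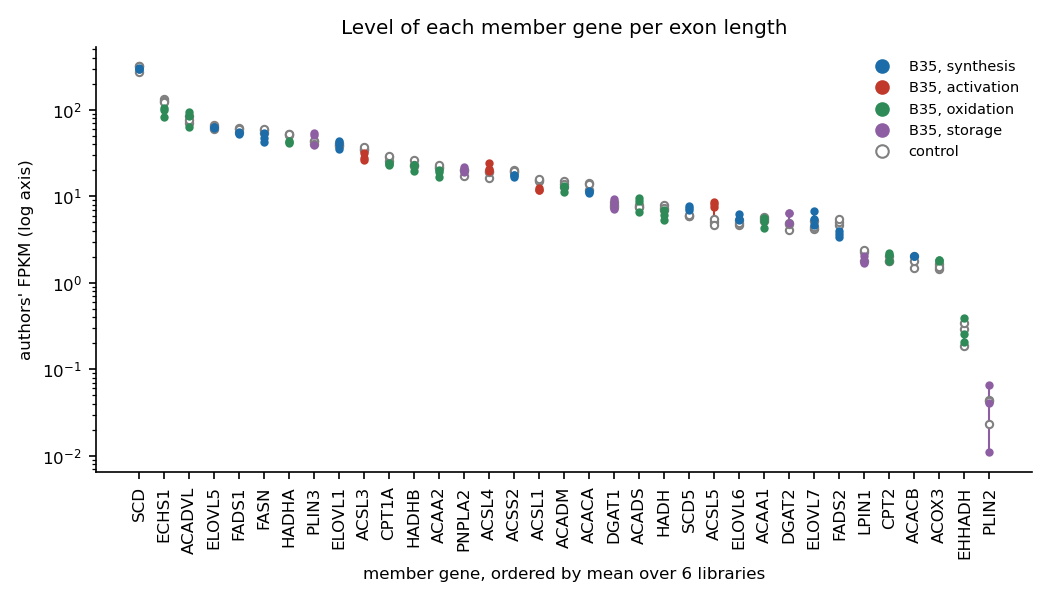
The vertical log axis gives the authors' FPKM of each member in each library (open grey for control, filled for B35, coloured by arm), with members ordered by their mean over the 6 libraries and lines spanning their range. SCD stands alone at the top with 276 to 319 FPKM, and PLIN2 at the bottom with 0.0109 to 0.065 FPKM.

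None of the 4 genes that supply acetyl-CoA, carboxylate it and build the chain passed the test. FASN had 503.5, 547 and 566 CPM in the control libraries and 406, 452 and 522 CPM in the B35 libraries. The groups overlapped, because B35 replicate 3 lay above the lowest control, and the fitted log2 difference of −0.23 ± 0.11 (SE) did not pass (edgeR adjusted p = 0.171). ACACA had 156, 189 and 181 CPM in controls and 148, 144 and 153 CPM with B35. Every B35 library was below every control, and the test was not passed (log2 −0.24 ± 0.097, edgeR adjusted p = 0.123). ACSS2, which makes cytosolic acetyl-CoA from acetate, was measured at 107 ± 3.13 CPM in control and 95.3 ± 3.14 CPM in B35 cells (mean ± SD, n = 3 each; edgeR adjusted p = 0.224). ACACB had 26.0 ± 4.25 and 29.9 ± 0.424 CPM (edgeR adjusted p = 0.317). The ratio of ACACB to ACACA FPKM was 0.133 ± 0.00946 in control and 0.181 ± 0.00307 in B35 libraries, all 3 B35 ratios above all 3 control ratios. As this pair was chosen after the values were seen, the separation adds no evidence beyond the test of each gene. After the GC and length correction FASN, ACACA and ACSS2 passed, with log2 fold changes of −0.38, −0.32 and −0.24 (edgeR adjusted p = 0.00397, 0.00745 and 0.029).

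Among the desaturases FADS2, the delta-6 desaturase that opens the path to long polyunsaturated fatty acids, was the member that fell (ENSG00000134824, chromosome 11, 61792980 to 61867354, plus strand, GRCh38). It had 51.3, 56.0 and 61.1 CPM in control libraries and 37.4, 40.4 and 44.9 CPM in B35 libraries. All B35 values lay below all control values, 1.37-fold lower in the fit (log2 −0.46 ± 0.11, edgeR adjusted p = 0.0181). FADS2 no longer passed when control replicate 2 or 3 was dropped (adjusted p = 0.0562 and 0.109 in edgeR), nor when B35 replicate 2 was (0.055). FADS1, the following desaturase of the same path, is annotated within the span of FADS2 on the opposite strand. It did not pass, with 611 ± 31.9 CPM in control and 565 ± 11.5 CPM in B35 cells (mean ± SD, n = 3 each; edgeR adjusted p = 0.39). The exons of FADS1 and FADS2 share 490 bases on opposite strands, 4.44% of the exon length of FADS2, so some reads there could belong to either gene. FADS2 also shares 49 exon bases with FEN1 on the same strand. Over the 6 libraries FADS1 had 63185 counts and FEN1 29161, beside 5201 for FADS2. The ratio of FADS2 to FADS1 FPKM was 0.0828, 0.0816 and 0.0912 in control libraries and 0.0629, 0.0653 and 0.0731 in B35 libraries, with no overlap. This ratio, like all FPKM ratios here, was chosen after the values were seen and is given without a test. The FADS2 promoter window is shown because this gene carries the only call of the arm. It is, of 2 listed for this gene, the RefSeq window with the most kinds of motif. It is chr11:61816154-61816453 (GRCh38.p14, plus strand), from 250 bases before to 50 after the start of transcription. That start, at 61816404, lies within the annotated span of FADS2 and 599 bases from the start used for FADS1. Capitals mark a GC box and an NF-Y box:

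FADS2: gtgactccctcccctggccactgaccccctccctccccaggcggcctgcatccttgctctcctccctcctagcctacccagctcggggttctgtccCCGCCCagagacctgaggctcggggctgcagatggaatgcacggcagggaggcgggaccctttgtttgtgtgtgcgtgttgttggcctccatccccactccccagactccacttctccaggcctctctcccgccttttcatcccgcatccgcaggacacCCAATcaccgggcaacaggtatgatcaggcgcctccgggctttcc

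SCD did not pass the test. It had 1489.6, 1720.02 and 1706 CPM in controls and 1617, 1627 and 1645 CPM with B35, all 3 B35 values falling inside the control range. Its fitted log2 change of −0.0079 ± 0.088 (SE) had an adjusted p of 0.966 in edgeR, and the sign changed with upper-quartile scaling and without control replicate 2 or 3. SCD5, a second stearoyl-CoA desaturase, had 25.7, 25.8 and 26.4 CPM in controls and 31.9, 30.2 and 33.8 CPM with B35. The groups did not overlap, but the adjusted p was 0.0691 in edgeR (log2 0.30 ± 0.10), and SCD5 passed without B35 replicate 1 (0.0499) and after the GC and length correction (0.0403). The ratio of SCD5 to SCD FPKM was 0.0199 ± 0.00148 in control and 0.0245 ± 0.00126 in B35 libraries, without overlap. It too was chosen after the values were seen and adds no further evidence.

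None of the 4 elongases passed. ELOVL1 and ELOVL5, which lengthen saturated and polyunsaturated chains, had log2 fold changes of 0.014 ± 0.10 and 0.012 ± 0.085 (edgeR adjusted p = 0.946 and 0.947). ELOVL6, which turns palmitate into stearate, was at 36.4 ± 2.54 CPM in control and 42.2 ± 3.37 CPM in B35 cells (mean ± SD, n = 3 each; edgeR adjusted p = 0.202). ELOVL7 was at 21.3 ± 2.30 and 26.3 ± 4.99 CPM (edgeR adjusted p = 0.193). Every B35 library lay above every control in ELOVL6, and the groups overlapped in the other 3.

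The long-chain acyl-CoA synthetases were the arm in which the values of all 4 genes were apart between the groups, 2 in each direction, with 1 rise and 1 fall called. Over all genes tested 36.3% were apart and 15.4% called, and 4 genes are too few to set this arm against them. These enzymes join coenzyme A to long-chain fatty acids and differ in their preferred substrates and in where they sit in the cell. ACSL5, found at mitochondria and the endoplasmic reticulum (ENSG00000197142, chromosome 10, 112374018 to 112428380, plus strand), had 21.2, 23.5 and 19.6 CPM in control libraries. In the B35 libraries it had 37.4, 32.5 and 34.9 CPM. The lowest B35 value was above the highest control value, a 1.63-fold rise (log2 0.70 ± 0.11, edgeR adjusted p = 0.00308). With single libraries left out the log2 fold change of ACSL5 lay between 0.64 and 0.77. ACSL5 shares 144 bases of exon with ZDHHC6 on the opposite strand, 3.40% of its exon length, and 224 bases with the antisense gene AL157786.1, and no source tells whether counting separated strands.

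ACSL1, the main synthetase of liver, fat and heart (ENSG00000151726, chromosome 4, 184755595 to 184826818, minus strand), had 97.3, 95.0 and 100.03 CPM in control libraries and 76.2, 78.6 and 75.3 CPM in B35 libraries. The spread within each group was small beside the gap between them, and ACSL1 fell 1.27-fold (log2 −0.35 ± 0.085, edgeR adjusted p = 0.0214). ACSL1 no longer passed when any library but B35 replicate 1 was dropped (adjusted p from 0.0516 to 0.125 in edgeR). ACSL3, a synthetase of the endoplasmic reticulum and of lipid droplets, had 258, 250.1 and 270.1 CPM in controls and 234, 203 and 195 CPM with B35. It missed the threshold (log2 −0.30 ± 0.095, edgeR adjusted p = 0.0577), and passed with DESeq2 (adjusted p = 0.0278), without the low-count filter (0.0448), after the GC and length correction (0.013) and without B35 replicate 1 (0.00485). ACSL4, which prefers arachidonate and is known for its part in ferroptosis, had 125, 104 and 121 CPM in controls and 157, 133 and 130 CPM with B35 (log2 0.26 ± 0.11, edgeR adjusted p = 0.139). Its groups were apart too, and it passed after the GC and length correction (edgeR adjusted p = 0.0133).

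**Figure D4:**
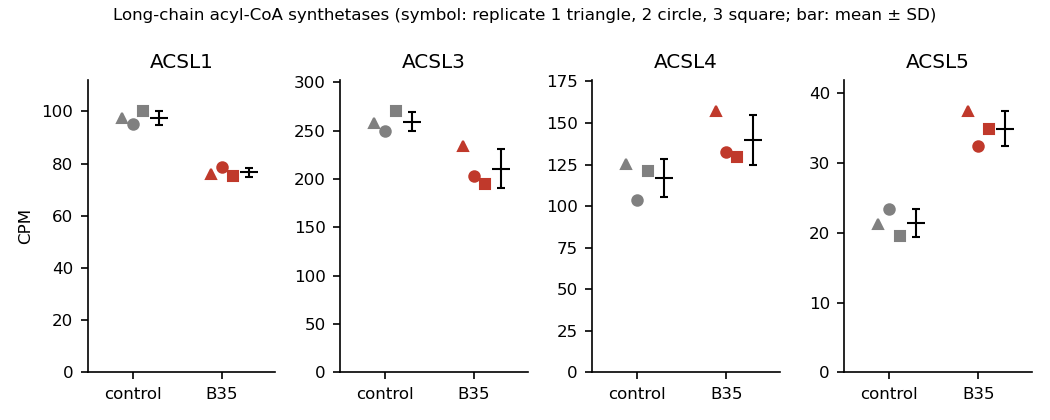
CPM of the 4 long-chain acyl-CoA synthetases in each library on axes from 0, with control in grey, B35 in red, the symbol giving the replicate and the black bar the mean ± SD of 3 libraries. ACSL1 and ACSL3 lie lower with B35, and ACSL4 and ACSL5 higher, with no overlap in any of the 4.

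The mRNA levels of these genes can also be set against each other within each library. Each pair sets a gene already seen higher with B35 over a gene already seen lower, so separated ratios add no further evidence. Per exon length, ACSL5 stood at 0.324, 0.367 and 0.290 of ACSL1 in the control libraries and at 0.729, 0.612 and 0.688 of it in the B35 libraries. The mean ratio was 0.327 ± 0.0383 in control and 0.676 ± 0.0589 in B35 cells (mean ± SD, n = 3 each), while ACSL1 remained the higher of these genes in every library. The ratio of ACSL4 to ACSL3 was 0.508 ± 0.0393 and 0.747 ± 0.0106. ACSL3 was the highest synthetase per exon length, with a mean of 32.2 FPKM, before ACSL4 (19.8 FPKM), ACSL1 (13.7 FPKM) and ACSL5 (6.58 FPKM), and the ranges of ACSL3 and ACSL4 did not overlap.

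Promoter windows of the 2 synthetases called are shown because they moved in opposite directions. That of ACSL5 is chr10:112375018-112375317 (plus strand) and that of ACSL1 chr4:184805504-184805803 (minus strand), both from RefSeq on GRCh38.p14. As for FADS2, each is the window with the most kinds of motif, among 2 listed for ACSL5 and 5 for ACSL1. The motifs shown therefore depend on that choice. The ACSL1 window lies within the gene, and chr4:184825919-184826218, nearer its annotated start, held GC boxes and no other motif searched. Capitals mark a nuclear receptor half-site in ACSL5 and, in ACSL1, a sterol regulatory element core, an NF-Y box and a GC box in that order:

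ACSL5: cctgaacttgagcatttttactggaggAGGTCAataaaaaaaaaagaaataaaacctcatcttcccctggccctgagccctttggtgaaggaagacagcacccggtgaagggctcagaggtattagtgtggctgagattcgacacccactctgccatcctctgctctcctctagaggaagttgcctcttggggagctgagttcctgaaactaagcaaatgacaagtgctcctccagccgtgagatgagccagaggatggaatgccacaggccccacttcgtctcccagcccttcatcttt

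ACSL1: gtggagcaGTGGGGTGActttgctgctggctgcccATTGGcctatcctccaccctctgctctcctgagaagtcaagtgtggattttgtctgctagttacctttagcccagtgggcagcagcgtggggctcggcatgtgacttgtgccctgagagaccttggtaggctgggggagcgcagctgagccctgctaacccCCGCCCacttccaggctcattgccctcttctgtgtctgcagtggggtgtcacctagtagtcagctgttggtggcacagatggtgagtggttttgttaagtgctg

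The letters searched on both strands were TCACNCCAC (sterol regulatory element core), CACGTG (E-box), AGGTCA (nuclear receptor half-site), CCAAT (NF-Y box) and GGGCGG (GC box), and no match overlaps another in the windows shown. RefSeq windows were matched for 30 of 35 members, 45 windows in all. The sterol element core was found in 2 of these windows, of ACSL1 and PNPLA2, and in 1.13% of all 35116 windows. The half-site was found in 4 member windows (ACSL5, ACACA, ELOVL6 and PNPLA2) and in 13.8% of all windows, and the E-box in 2 (ELOVL5 and PLIN2) and 7.26%. NF-Y boxes were in 13 member windows and 34.6% of all windows, and GC boxes in 31 and 45.0%. A match is a run of letters and does not show binding.

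In the oxidation arm 2 of 13 genes fell and none rose. The share called was 15.4%, close to that of all genes tested (15.4%, with 8.82% higher and 6.59% lower). The median log2 fold change was −0.11, beside 0.0067 for all genes tested. Both genes called are mitochondrial enzymes of the later steps. HADHA, the alpha subunit of the trifunctional protein, which hydrates and dehydrogenates long-chain acyl-CoA (ENSG00000084754, chromosome 2, 26190635 to 26244726, minus strand), had 233, 227 and 232 CPM in controls and 188, 191 and 184 CPM with B35. The values of each group lay close together and the groups apart, 1.23-fold lower with B35 (log2 −0.30 ± 0.081, edgeR adjusted p = 0.0316). ECHS1, the hydratase of shorter chains (ENSG00000127884, chromosome 10, 133362480 to 133373689, minus strand), had 215, 208 and 198 CPM in controls and 135, 173 and 165 CPM with B35. B35 replicate 1 was the lowest, and ECHS1 was 1.31-fold lower (log2 −0.39 ± 0.11, edgeR adjusted p = 0.0309). Neither gene passed once any 1 of the controls was dropped (adjusted p from 0.0875 to 0.151 in edgeR), nor did HADHA without B35 replicate 2 or 3 (0.0672 and 0.0738).

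HADHB, the thiolase subunit of the same trifunctional protein, is the neighbour of HADHA and is transcribed in the other direction from a start 307 bases away. It had 112, 98.7 and 97.1 CPM in controls and 101, 99.3 and 86.6 CPM with B35, which overlap (log2 −0.10 ± 0.10, edgeR adjusted p = 0.54). The ratio of HADHA to HADHB FPKM was 2.02, 2.25 and 2.33 in control libraries and 1.81, 1.87 and 2.07 in B35 libraries, so the ranges overlapped. The change of HADHA was thus not shown to differ from that of HADHB. Their RefSeq windows, chr2:26244583-26244882 (HADHA, minus strand) and chr2:26244689-26244988 (HADHB, plus strand), are shown because they cover 194 bases in common, read from opposite strands. Capitals mark GC boxes:

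HADHA: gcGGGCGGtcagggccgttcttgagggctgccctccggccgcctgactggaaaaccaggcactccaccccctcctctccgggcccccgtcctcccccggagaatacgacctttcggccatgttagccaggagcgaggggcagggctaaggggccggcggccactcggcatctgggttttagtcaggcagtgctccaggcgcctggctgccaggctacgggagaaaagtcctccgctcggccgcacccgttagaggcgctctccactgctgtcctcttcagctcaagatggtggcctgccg

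HADHB: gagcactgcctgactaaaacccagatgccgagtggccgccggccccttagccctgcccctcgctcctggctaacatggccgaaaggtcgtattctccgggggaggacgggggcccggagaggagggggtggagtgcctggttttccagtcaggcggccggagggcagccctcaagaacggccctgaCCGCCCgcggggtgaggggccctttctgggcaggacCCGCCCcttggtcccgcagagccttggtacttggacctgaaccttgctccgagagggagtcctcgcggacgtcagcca

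The other mitochondrial enzymes after the first dehydrogenation did not pass. HADH, the dehydrogenase of short chains, was at 90.4 ± 6.62 CPM in control and 75.6 ± 9.40 CPM in B35 cells (mean ± SD, n = 3 each; edgeR adjusted p = 0.142), and the thiolase ACAA2 at 112 ± 3.78 and 95.6 ± 8.12 CPM (0.129). In all 5 genes of this group the fitted change was below 0, from −0.39 to −0.10 on the log2 scale. Of all 14773 genes tested 7244 were fitted below 0, and 5 genes are too few to set against them. All 4 elongases of the synthesis arm were fitted above 0. HADH and ACAA2 passed without B35 replicate 1 (edgeR adjusted p = 0.0192 and 0.028) and after the GC and length correction (0.0161 and 0.0211). The 3 acyl-CoA dehydrogenases, which take the first step on long, medium and short chains, did not pass. ACADVL, for very long chains, had 342, 418 and 375 CPM in controls and 311, 422 and 466 CPM with B35, where B35 replicate 1 was the lowest and the other 2 were the highest of all 6 libraries (log2 0.078 ± 0.14, edgeR adjusted p = 0.757). ACADM, for medium chains, was at 66.8 ± 5.48 and 60.5 ± 4.83 CPM, and ACADS, for short chains, at 20.3 ± 0.610 and 22.1 ± 4.02 CPM (edgeR adjusted p = 0.386 and 0.602). The exons of ACADM share 157 bases with RABGGTB on the same strand, and those of ACADVL 85 bases with DLG4 on the opposite strand.

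CPT1A, the carnitine transferase of the outer membrane that malonyl-CoA inhibits, had 170.4, 189.7 and 190.1 CPM in controls and 157, 153 and 161 CPM with B35. All B35 libraries were below all controls, and the test was not passed (log2 −0.22 ± 0.088, edgeR adjusted p = 0.113) except after the GC and length correction (log2 −0.29, edgeR adjusted p = 0.00876). CPT2, its partner at the inner membrane, was at 19.7 ± 1.79 and 21.5 ± 2.33 CPM (edgeR adjusted p = 0.548). None of the 3 peroxisomal genes passed. ACOX3, an oxidase of branched chains, was at 5.96 ± 0.415 and 7.06 ± 0.0902 CPM with no overlap between groups (edgeR adjusted p = 0.317), the bifunctional enzyme EHHADH at 1.30 ± 0.370 and 1.36 ± 0.449 CPM (0.919), and the thiolase ACAA1 at 39.2 ± 2.24 and 36.2 ± 4.30 CPM (0.542). DLEC1 shares 19.7% of the exon length of ACAA1 on the opposite strand and had 24 counts in all.

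**Figure D5:**
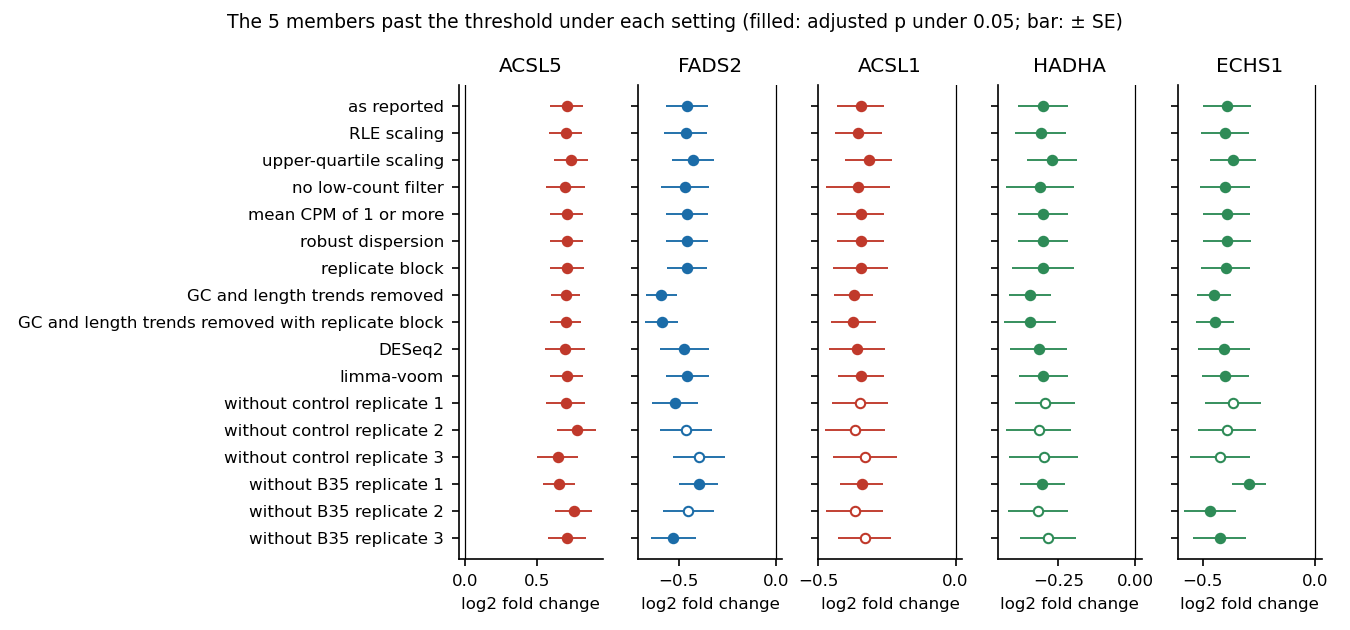
Each panel is a member past the threshold and each row a setting, with the log2 fold change (B35 over control) and a bar of ± 1 SE, filled where the adjusted p is under 0.05. All points of ACSL5 are filled and to the right of 0, and those of FADS2, ACSL1, HADHA and ECHS1 are to the left of 0, with 3 (FADS2, ECHS1) or 5 (ACSL1, HADHA) of 6 points open where 1 library was left out.

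In the storage arm none of the 5 genes tested passed (1 had an unadjusted edgeR p under 0.05, and DESeq2 called none), and the groups overlapped in each of them. DGAT2, which adds the last acyl chain of triglyceride, had 32.2, 39.6 and 37.8 CPM in controls and 39.3, 50.5 and 51.4 CPM with B35. B35 replicates 2 and 3 were above all controls and B35 replicate 1 was among them (log2 0.37 ± 0.13, edgeR adjusted p = 0.0782). DGAT2 passed without B35 replicate 1 (0.00687), without the low-count filter (0.0444) and with the replicate number as a block (0.0233). DGAT1, the other enzyme of this step (chromosome 8), was at 33.2 ± 2.25 and 34.3 ± 5.02 CPM (SD, n = 3 each; edgeR adjusted p = 0.852). The ratio of DGAT2 to DGAT1 FPKM was 0.574 ± 0.0358 in control and 0.719 ± 0.059 in B35 libraries, without overlap. It was also chosen after the values were seen and adds no further evidence. DGAT1 shares 139 exon bases with HSF1 on the opposite strand. LPIN1, a phosphatidate phosphatase of triglyceride synthesis, was at 25.5 ± 3.79 and 22.3 ± 1.93 CPM (0.365).

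PLIN3, a coat protein of nascent lipid droplets, had 123, 123 and 115 CPM in controls and 112, 152 and 147 CPM with B35. The B35 libraries lay on both sides of the controls, with B35 replicate 1 lowest of all (log2 0.18 ± 0.12, edgeR adjusted p = 0.331), and without that library PLIN3 passed (log2 0.31, 0.0147). PNPLA2, the first lipase of triglyceride breakdown, was at 74.4 ± 6.94 and 79.8 ± 5.37 CPM (edgeR adjusted p = 0.551). PLIN2, the coat protein that usually tracks the amount of stored lipid, was the 1 member below the filter on low counts. It had 4, 4 and 2 counts in the control libraries and 1, 6 and 4 counts in the B35 libraries, 21 counts in all, so that no difference was detectable at this depth. Per exon length PLIN3 had a mean of 45.3 FPKM over the 6 libraries and PLIN2 0.0378 FPKM.

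A further 120 genes of the same pathways, listed by function, gave the surroundings of these members. Of these, 98 had enough counts to test, and 9 rose and 6 fell, or 15.3%, beside 15.4% of all genes tested. Among 15 tested genes of synthesis outside the members 3 fell and none rose, beside 6.59% of all genes called lower and 8.82% called higher. The share called was 20%, beside 15.4% of all genes. ACLY, which makes cytosolic acetyl-CoA from citrate and so feeds FASN, fell from 378 ± 8.29 to 235 ± 18.3 CPM (SD, n = 3 each), 1.61-fold (log2 −0.69 ± 0.09, edgeR adjusted p = 0.00107). ME1, a source of NADPH for synthesis, was 1.5-fold lower and HACD2, a dehydratase of elongation, 1.29-fold lower (edgeR adjusted p = 0.0238 and 0.0254). With control replicate 1 left out 1 gene of this list fell (7.12% of all genes called in either direction). Leaving out control replicate 2 gave 2 falls (8.5%), and leaving out control replicate 3 gave 1 (5.8%). When B35 replicate 3 was dropped 1 fell (10.6%). After the GC and length correction 7 fell, in a fit where 15.6% of all genes were called lower and 27.6% in either direction.

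Of 30 tested genes of control 16.7% were called, beside 15.4% of all genes tested. Among them 5 rose and none fell, beside 8.82% of all genes called higher and 6.59% called lower. They were INSIG2, which holds the SREBP escort protein in the endoplasmic reticulum (1.64-fold), PDK4, a kinase that turns cells from glucose to fatty acid use (1.62-fold), LPIN2 (1.34-fold), PPARA, the receptor of oxidation genes (1.52-fold), and NR1H3, the sterol receptor LXR-alpha (1.36-fold), with edgeR adjusted p between 0.00216 and 0.00963. LPIN2 is a relative of LPIN1 of the storage arm and is counted under control only because it was listed there. It was at 162 ± 4.41 CPM in control and 216 ± 4.68 CPM in B35 cells. SREBF1, which encodes SREBP-1, was at 224 ± 24.4 and 242 ± 20.9 CPM and did not pass (edgeR adjusted p = 0.527). The list had 3 rises when control replicate 3 was dropped and 8 with the replicate block. It had 7 rises and 2 falls after the GC and length correction (11.9% and 15.6% of all genes), and 1 fall each without control replicate 1 and without the low-count filter. NR1H3 shares 189 exon bases with ACP2 on the opposite strand.

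Among 25 tested genes of oxidation outside the members, 1 rose and 2 fell, or 12%, beside 15.4% of all genes tested. CRAT, the carnitine transferase of short chains, was 1.42-fold higher, and the peroxisomal genes ABCD3, a transporter, and HSD17B4, a bifunctional enzyme, were 1.31-fold and 1.29-fold lower (edgeR adjusted p = 0.00703, 0.0118 and 0.0181). Without control replicate 1 or 3, none of the list fell, and without control replicate 3 none rose. When B35 replicate 1 was dropped 4 rose and 3 fell, beside 12.1% higher and 10.1% lower among all genes. After the GC and length correction 2 rose and 4 fell, beside 11.9% and 15.6%. Of 28 tested genes of storage, lipolysis and uptake, 3 rose and 1 fell, or 14.3%, again beside 15.4% of all genes. ANGPTL4, an inhibitor of lipoprotein lipase, rose from 7.36 ± 0.913 to 32.4 ± 6.73 CPM, SLC27A1, a fatty acid transport protein, from 7.17 ± 1.34 to 16.4 ± 3.56 CPM, and LIPA, the lysosomal acid lipase, 1.24-fold (edgeR adjusted p = 6.68e-05, 0.00299 and 0.0364). LIPE, the hormone-sensitive lipase, was 1.45-fold lower (adjusted p = 0.0372 in edgeR), and 9.60% of its exon length is shared with LIPE-AS1. LIPE lost its call without any 1 of the controls or B35 replicate 2, and 2 genes of the list rose when control replicate 3, or B35 replicate 2 or 3, was dropped, and 6 when B35 replicate 1 was. The exons of CRAT share 75 bases with PTPA and those of LIPA 65 with IFIT2, both on the opposite strand.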

How the data were processed

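TRIzol RNA went into NEBNext Ultra libraries, per the labels. HISAT2 2.0.5 and featureCounts 1.5.0-p3 are named by the submitters' processing notes, with hg38 as the build. No source says if counting was stranded. Each deposited file gives a raw count and an FPKM value for every gene. The authors' FPKM equals the count per kilobase of GENCODE 29 exon length over 0.982 to 1.05 times the library total, and served only for levels between genes.

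All 6 libraries entered 1 fit, the two-sided quasi-likelihood test of edgeR 4.0.16 (R 4.3.3). Genes passed filterByExpr (minimum count 10, minimum total 15), TMM factors were 0.979 to 1.03, and Benjamini-Hochberg adjustment covered 14773 genes. The SE is the absolute log2 fold change over the root of F. The fit was tested on simulated data. Alternatives were RLE and upper-quartile scaling, no filter, mean CPM at or above 1, leaving out single libraries, robust dispersion, DESeq2 1.42.0, limma-voom (limma 3.58.1), the replicate number as a block, and a correction for GC content (longest transcript of the gene, since no genome sequence was used here) and exon length, by smooth terms of mgcv 1.9.3, with and without the block. No 2 replicates matched within sampling noise (4.71 to 35.2 for chi-square per degree of freedom). Every member was named, and in the other lists up to 4 genes per direction by adjusted p. NR1H3, SREBF1, CDKN2A and the ratios were named after their values were seen. The members and lists were chosen with earlier results of these data known. Python 3.11.15 with pandas 2.3.3 and matplotlib 3.10.9 made tables and plots.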

Additional observations from a re-analysis of the deposited data

How the results depend on the processing

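Over 16 alternative settings, 480 of 544 fold changes of the 34 tested members kept their direction and their side of the threshold, 28 came to pass it, 16 no longer passed and 20 changed sign. After the GC and length correction, 3 members were higher and 11 lower, with 1 higher and 4 lower in synthesis, 2 and 2 in activation and 5 lower in oxidation, and 13 of the other pathway genes were higher and 16 lower (9 and 6 in the fit reported). With that correction and the replicate block together the counts were 3 and 11, with 4 lower in synthesis, 2 and 2 in activation, 5 lower in oxidation, 1 higher in storage, and 13 other pathway genes higher and 16 lower. Without the low-count filter 2 members were higher, 2 lower in activation and 1 higher in storage, and DESeq2 called 2 lower in activation. The cause of these differences was not tested.

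Same-numbered libraries are not stated to be related, and their deviations from the group means correlated at 0.163, 0.0162 and −0.063 for numbers 1, 2 and 3, so the numbers were not taken to pair them. Control replicate 2 correlated best with B35 replicate 3 (0.249). With the replicate block 2 members were higher, 1 of them in storage, and of the other pathway genes 13 were higher and 8 lower.

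With single libraries left out, 1 to 4 members were higher and 0 to 7 lower. By arm these were 0 to 1 higher and 0 to 1 lower in synthesis, 1 to 1 higher and 0 to 2 lower in activation, 0 to 4 lower in oxidation and 0 to 2 higher in storage. For the other pathway genes they were 5 to 16 higher and 1 to 9 lower. Each such fit leaves 1 group with 2 libraries.

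Sign changes were all in log2 fold changes that never passed. SCD was 0.021 with upper-quartile scaling, and −0.074 to 0.025 with single libraries left out (above 0 without control replicate 2 or 3, 0.025 and 0.019). ELOVL1 was −0.0389 and −0.0397 after the GC and length correction (without and with the block), −0.00094 with DESeq2, and −0.061 to 0.086 with single libraries left out (below 0 without control replicate 1, −0.017, or B35 replicate 3). ELOVL5 was −0.0031 with DESeq2 and −0.0301 to 0.047 with single libraries left out (below 0 without control replicate 1). ACADVL was −0.027 and −0.031, DGAT1 −0.067 and −0.068, and PNPLA2 −0.0054 and −0.00093 after that correction. With single libraries left out ACADVL ran from −0.046 to 0.23 and DGAT1 from −0.072 to 0.14, both below 0 without B35 replicate 3. EHHADH ran from −0.22 to 0.26, below 0 without control replicate 2 (−0.14) or B35 replicate 1. Members with few counts (PLIN2 with 21 in all, EHHADH with 142) are limited by depth.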
